A study of Sus scrofa with 4 samples.

Results

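The genes described here encode the coat of lipid droplets, the enzymes that build, activate and burn fatty acids, and the enzymes and sensors of cholesterol synthesis. They were chosen by name from a list of 55 symbols, and 52 of the 35248 rows of the count table carry one of them. No row carries the names ACSL6, CD36 or INSIG2. Of the 52 genes, 46 had enough counts to be tested between the groups and 6 did not (PLIN1, PLIN4, DGAT1, DGAT2, SREBF1 and FDPS). The RNA came from pig embryos at the 4-cell stage, made parthenogenetically: oocytes were activated by electric pulse without sperm, kept in cytochalasin B for 3 h and then cultured for 48 h, so that no group has a paternal genome. In 2 samples the embryos received 50 µM Bobcat339, a small molecule used to inhibit the TET dioxygenases, which oxidise 5-methylcytosine in DNA. The other 2 samples received DMSO, the solvent, and are the control. According to its title the study asks how TET inhibition bears on gene expression; that is put here to the lipid genes.

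Lipid droplets hold triacylglycerol and sterol esters under a single layer of phospholipid, and perilipins coat that surface and govern the access of lipases. Released fatty acids are joined to coenzyme A by acyl-CoA synthetases, enter mitochondria through the carnitine shuttle and are shortened by beta-oxidation. Cholesterol is made from acetyl-CoA through mevalonate and squalene. When sterol in the endoplasmic reticulum is low, SCAP carries the SREBP transcription factors to the Golgi for cleavage, and INSIG proteins hold SCAP back when it is high. Pig oocytes and early embryos are known for their dense store of lipid droplets, which makes their cytoplasm dark.

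The libraries held 13568525 to 14681221 counts, and 3 counts, the limit set by a count of 0, correspond to 0.204 to 0.221 CPM (counts scaled to a common library size). Intervals and limits drawn from counts cover counting error only, since the reads carry no molecular identifiers. The labels do not say whether the replicates came from separate cultures or how many embryos each held, so a p-value here weighs a difference against the spread of these samples alone, which may be technical. The labelled source was checked against 7 oocyte and early embryo markers, a list that does not separate the 4-cell stage from the oocyte. They summed to 9979 to 11507 CPM in every library, with BMP15 and WEE2 the largest, while ZAR1 had 6 to 18 counts. Of 10 cumulus and granulosa cell markers, the somatic cells that surround the oocyte, the sum was 79.0 to 99.5 CPM, most of it VCAN (57.6 to 81.8 CPM), while AMH had 0 counts in every library and FSHR at most 1. Adipocyte markers summed to 2.31 to 4.71 CPM, and blood and immune cell markers to 9.71 to 12.5 CPM. The marker sums of the 2 groups overlapped in each of these lists. Within the cumulus and granulosa list the groups did not overlap at TNFAIP6, a protein of the cumulus matrix, with 7 and 4 counts with Bobcat339 and 24 and 22 in the controls (log2 fold change −2.07; unadjusted edgeR p of 0.00958, edgeR adjusted p of 0.999). They did not overlap either at FST, the activin-binding protein follistatin, which stood at 10.6 and 13.4 CPM with Bobcat339 and at 8.79 and 7.93 CPM in the controls. Replicates were further apart than counting noise in both groups, with a chi-square per gene of 11.2 (Bobcat339) and 41.4 (control).

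Within most branches of lipid metabolism 1 gene carried the bulk of the transcripts. Levels are compared between genes as deposited FPKM (fragments scaled for transcript length and depth), given as the mean ± SD over all 4 libraries. They depend on the length behind the FPKM, which differs from the deposited gene length at 40 of the 52 members. ACSL3, which activates fatty acids at the endoplasmic reticulum and on nascent droplets, stood at 187 ± 32.7 FPKM. ELOVL6, the elongase that extends palmitate to stearate, stood at 172 ± 9.27 FPKM. FDFT1, squalene synthase, the first enzyme committed to sterols, stood at 109 ± 13.9 FPKM. These were the 3 highest members and lay within the top 2.69% of the tested rows. The libraries of ACSL3 (144 to 216 FPKM) and ELOVL6 (163 to 183 FPKM) overlapped, so their order is not resolved, and those of FDFT1 (95.2 to 128 FPKM) lay below both. Next came FABP5, a cytosolic fatty acid carrier (53.9 ± 18.5 FPKM), ELOVL5, an elongase of polyunsaturated fatty acids (41.8 ± 7.60 FPKM), and PLIN2 (40.4 ± 12.4 FPKM), whose libraries overlapped one another. In all, 19 of the 46 tested members had a mean of at least 10 FPKM, where 27.2% of all tested rows did.

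**Figure D1:**
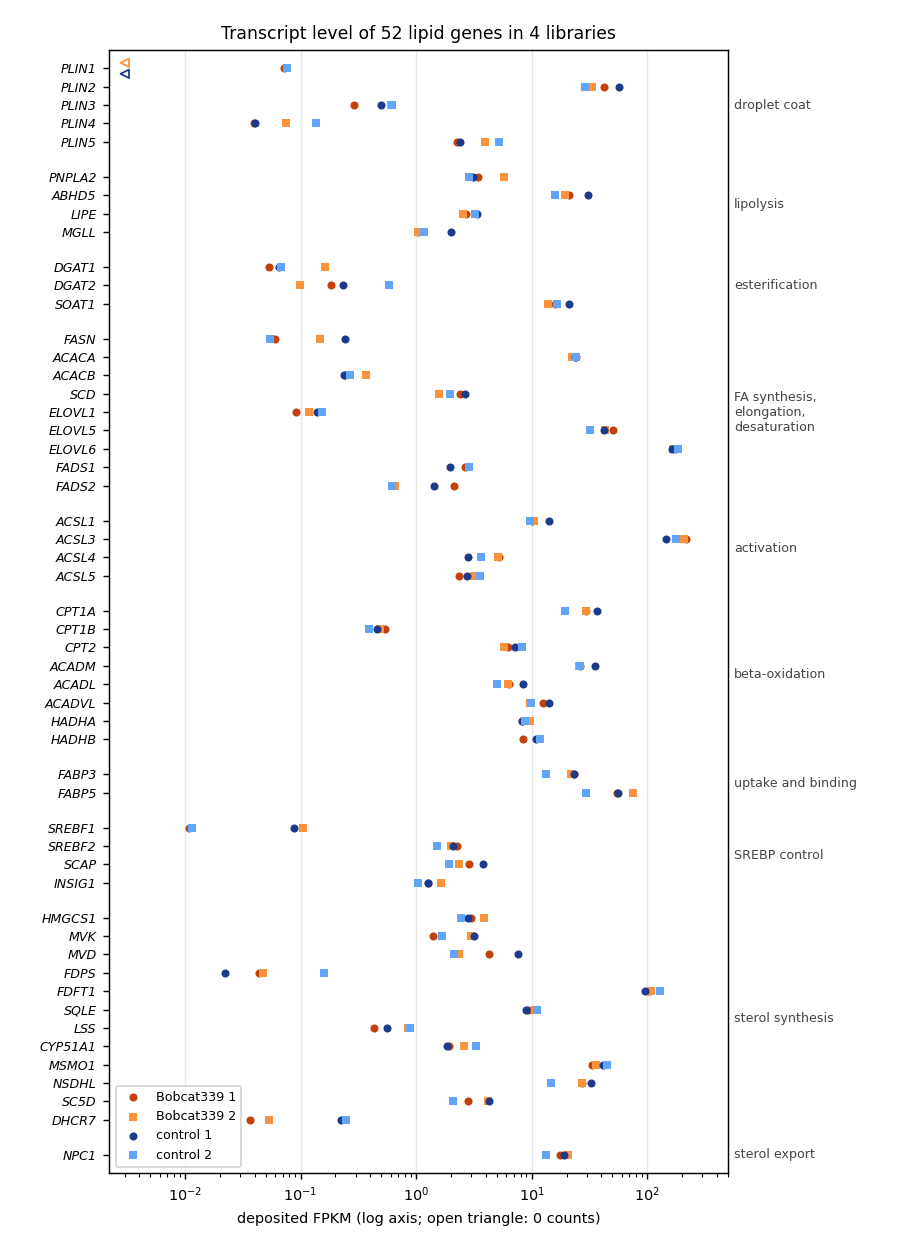
Deposited FPKM (log axis) of the 52 lipid genes, grouped by role; each point is 1 of the 4 libraries, and open triangles at the left edge mark 0 counts. ACSL3, ELOVL6 and FDFT1 stand furthest to the right, at 95.2 FPKM or more in every library, and PLIN1, PLIN4, DGAT1, FASN, ELOVL1, SREBF1, FDPS and DHCR7 stay furthest to the left, at 0.246 FPKM or less in every library.

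Close relatives differed widely in level in most of the families compared. PLIN2, the perilipin of most cells other than fat cells, held 83.0% to 95.1% of the summed FPKM of the 5 perilipins in each library. PLIN5, the perilipin of tissues that oxidise much fat, was the next, with 3.97% to 14.7%. PLIN1, the perilipin of adipocytes, had 0 to 2 counts per library and PLIN4 had 4 to 13. ACACA, the acetyl-CoA carboxylase that makes malonyl-CoA for fatty acid synthesis, held 98.4% to 99.0% of the FPKM it shares with ACACB, the form of the mitochondrial surface. CPT1A, the liver form of the carnitine palmitoyltransferase that admits fatty acids to mitochondria, held 98.0% to 98.8% against the muscle form CPT1B. ACSL3 held 88.1% to 92.5% of the FPKM of ACSL1, ACSL3, ACSL4 and ACSL5. SREBF2, the SREBP gene tied mainly to cholesterol synthesis, held 95.01% to 99.5% against SREBF1, tied mainly to fatty acid synthesis. In each of these families the leading gene was the same in all 4 libraries. The desaturases SCD, FADS1 and FADS2 were closer in level and had no such leader. FADS1 held 32.6% to 56.0% of their FPKM and SCD 31.1% to 43.9%, with SCD ahead in control 1 and FADS1 in the other libraries.

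Several central enzymes were close to the limit of detection. FASN, fatty acid synthase, had 7 and 16 counts in the Bobcat339 libraries and 28 and 6 in the controls. DGAT1 and DGAT2, the enzymes that complete triacylglycerol, had 5 to 14 and 2 to 12 counts. SREBF1 had 1 to 9 counts and FDPS, which makes the farnesyl diphosphate that FDFT1 uses, had 2 to 14. The low FDPS row thus stood next in the pathway to FDFT1, with 8905 to 11538 counts. The whole span of the FDPS row lies within a neighbouring named row, 37.9% of the DGAT1 span, 39.4% of the DHCR7 span and 84.6% of the ELOVL1 span are shared with one, and the sources used here do not say how reads in shared spans were counted. Of the 6 untested members 3 share over 10% of their span with a named row, against 7 of the 46 tested members; the part of shared spans in these low counts was not tested. PNPLA2, which also lies wholly within another row, had 91 to 180 counts.

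Between Bobcat339 and control embryos 0 of the 46 tested lipid genes passed edgeR's quasi-likelihood test at a Benjamini-Hochberg adjusted p of 0.05, where 0 of 18481 rows (0%) passed. DESeq2 and limma-voom also called 0 members; DESeq2 called 5 of 30007 rows (0.0167%). At an unadjusted p under 0.05 edgeR had 1 member, DHCR7, and it was lower, where 4% of all rows had such a p (1.36% higher and 2.64% lower). At the same unadjusted p limma-voom had 1 member, DHCR7 (3.5% of all rows) and DESeq2 had 2, DHCR7 and ACSL4 (1.86% of all rows). Without a low-count filter edgeR again had DHCR7 alone (2.96% of all rows). The median log2 fold change of the 46 members was −0.13, against −0.02 over all tested rows, and 28 members lay below 0, where 52.9% of all rows did. The 95% interval of a member, without adjustment for the number of rows, reached 0.71 to either side on the log2 scale at the median. Smaller differences were thus not detectable for many members. After adjustment larger ones could also fail, as DHCR7 did at −2.38 (edgeR adjusted p of 0.999). At 12 members the 2 groups did not overlap, 5 higher and 7 lower in Bobcat339; 29.3% of all rows had groups that did not overlap (13.3% higher and 16% lower). In bulk RNA of whole embryos, fewer cells and less RNA per cell cannot be told apart.

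**Figure D2:**
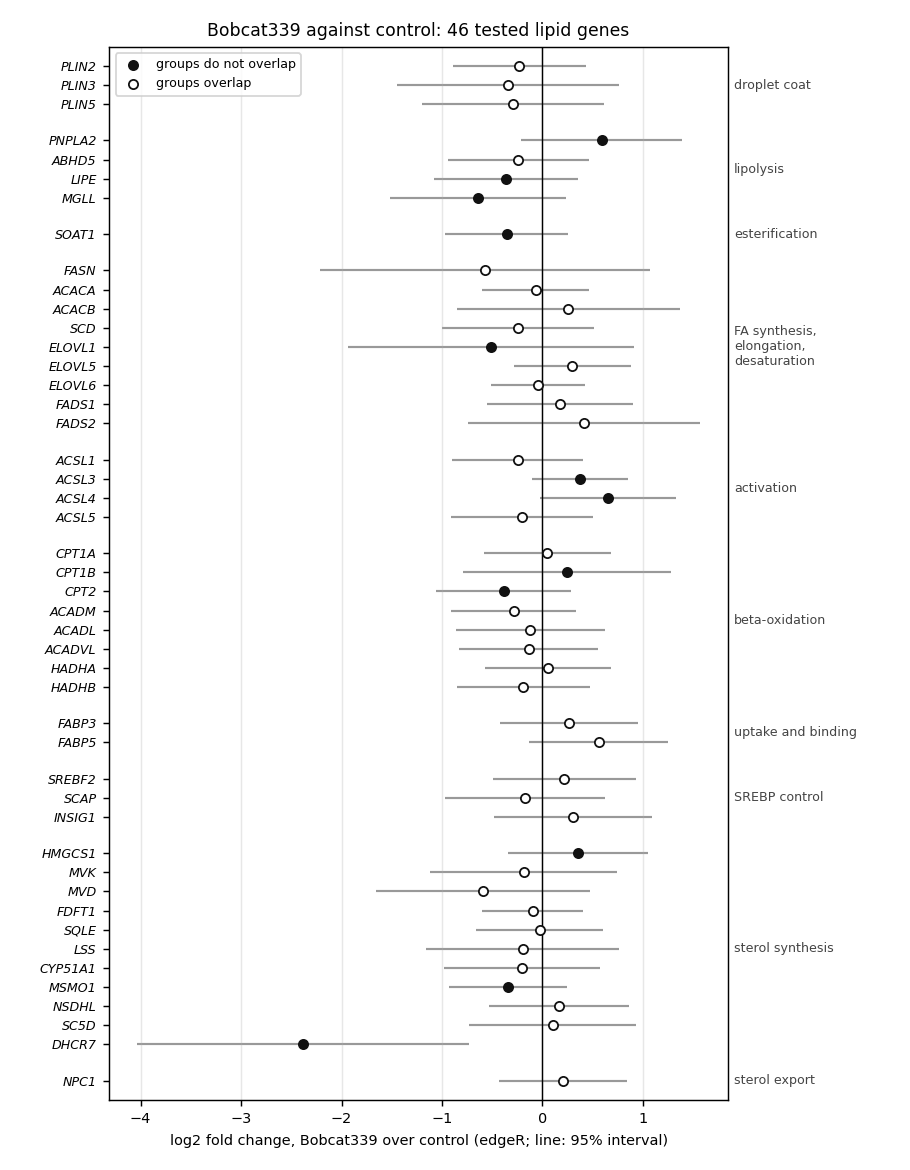
Log2 fold change of Bobcat339 over control for the 46 tested members, with lines for the 95% interval from edgeR; filled points mark the 12 members whose groups do not overlap. DHCR7 at −2.38 is the only member whose interval leaves out 0.

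DHCR7 encodes 7-dehydrocholesterol reductase, which takes the last step to cholesterol in one branch of the pathway and otherwise leaves the precursor of vitamin D. Its row (ENSSSCG00000021181, chromosome 2: 2357714 to 2394851, plus strand) had 3 and 4 counts in the Bobcat339 libraries and 18 and 19 in the control libraries. As TMM-normalised CPM this was 0.247 ± 0.0613 in Bobcat339 and 1.32 ± 0.0497 in control embryos (SD, n = 2 each). Both Bobcat339 libraries lay near the detection limit and well below both controls, and the replicates of each group were close. DHCR7 thus came to −2.38 on the log2 scale (SE 0.78; 95% interval −4.03 to −0.73), with an unadjusted edgeR p of 0.00733 and an edgeR adjusted p of 0.999. Summed over libraries, the control held 5.38 times the level of Bobcat339, with a counting interval of 2.37 to 14.3 from 37 and 7 counts. With any 1 library left out the log2 fold change stayed between −2.60 and −2.16, while its unadjusted p lay between 0.0507 and 0.0738 by edgeR. The cumulus marker TNFAIP6 was lower in the same libraries, at −2.07 on the log2 scale, from 4 to 24 counts per library. The other tested markers of its list lay on both sides of 0, from −0.90 (CYP19A1) to 0.52 (FST), with VCAN at 0.09. The part of cumulus cells in the DHCR7 value was not tested. The DHCR7 row overlaps NADSYN1, on the other strand, which had 3 to 8 counts, and without a stated use of strand, reads from both cannot be told apart where they overlap.

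The enzymes of sterol synthesis lay on both sides of 0. Of 11 tested, 8 had a log2 fold change below 0 and 3 above, with a median of −0.19, and HMGCS1, MSMO1 and DHCR7 were those whose groups did not overlap. HMGCS1, which makes the HMG-CoA that feeds mevalonate, stood at 17.9 and 22.7 CPM with Bobcat339 and 17.2 and 14.6 CPM in the controls. Its log2 fold change was 0.35 (95% interval −0.34 to 1.05). MSMO1, a methylsterol oxidase that strips methyl groups from lanosterol products, stood at 76.4 and 81.4 CPM with Bobcat339 and 97.9 and 102 CPM in the controls. Both Bobcat339 libraries of MSMO1 were lower by little, and its log2 fold change was −0.34 (95% interval −0.93 to 0.24). FDFT1 (ENSSSCG00000026044, chromosome 14: 14967273 to 15104179, plus strand) stood at 675 and 691 CPM with Bobcat339 and at 636 and 824 CPM in the controls. The control libraries of FDFT1 lay on either side of the Bobcat339 pair, and its log2 fold change was −0.10 (95% interval −0.60 to 0.41). FDFT1 and 7 further enzymes had groups that overlapped, with log2 fold changes from −0.59 for MVD, mevalonate diphosphate decarboxylase, to 0.16 for NSDHL, a sterol dehydrogenase that acts with MSMO1.

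The SREBP pathway, which switches these enzymes on, was measured in 3 tested genes. SREBF2 stood at 20.7 and 17.9 CPM with Bobcat339 and at 19.7 and 13.6 CPM in the controls, with a log2 fold change of 0.22 (95% interval −0.49 to 0.93). SCAP, the escort of SREBP, stood at 15.2 and 12.3 CPM with Bobcat339 and at 20.9 and 10.21 CPM in the controls, with a log2 fold change of −0.17. INSIG1, the retention protein and itself an SREBP target, stood at 7.20 and 9.30 CPM with Bobcat339 and at 7.43 and 5.93 CPM in the controls, with 0.30 (95% interval −0.48 to 1.09). In all 3 genes control 2 was the lowest library and the groups overlapped. NPC1, the membrane protein that moves cholesterol out of late endosomes and lysosomes, stood at 76.7 and 89.5 CPM with Bobcat339 and at 86.4 and 57.6 CPM in the controls. Its control 2 was likewise the lowest library, and its log2 fold change was 0.21 (95% interval −0.43 to 0.84). SOAT1, which esterifies cholesterol for storage in droplets, stood at 80.9 and 69.3 CPM with Bobcat339 and at 109 and 83.0 CPM in the controls. The groups of SOAT1 did not overlap, although Bobcat339 1 and control 2 were nearly equal, and the log2 fold change was −0.36 (95% interval −0.97 to 0.25), which was −0.14 without control 1 and −0.20 without Bobcat339 2.

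Of the members above 0, ACSL4 had the smallest p. ACSL4 (ENSSSCG00000012583, chromosome X: 89760861 to 89838103, minus strand), which prefers arachidonate and other polyunsaturated fatty acids, stood at 30.0 and 29.0 CPM with Bobcat339 and 16.6 and 20.8 CPM in the controls. The Bobcat339 pair of ACSL4 was tight (0.05 on the log2 scale, replicate 1 minus 2), the controls less so (−0.32). The difference between the groups was 0.65 on the log2 scale (SE 0.32; 95% interval −0.02 to 1.33), with an unadjusted edgeR p of 0.0566 and an edgeR adjusted p of 0.999. ACSL3 (ENSSSCG00000016223, chromosome 15: 124741934 to 124817004, plus strand) stood at 1197 and 1143 CPM with Bobcat339 and at 823 and 983 CPM in the controls. Both Bobcat339 libraries of ACSL3 again lay above both controls, by 0.37 on the log2 scale (SE 0.23; 95% interval −0.11 to 0.85). With each library left out in turn the log2 fold change ranged from 0.50 to 0.86 for ACSL4 and from 0.25 to 0.54 for ACSL3. The other 2 tested synthetases had groups that overlapped and values below 0. ACSL1, the main form of liver, fat and heart, stood at 46.6 and 47.9 CPM with Bobcat339 and at 67.2 and 44.9 CPM in the controls, with control 1 alone high. ACSL5, a form known from intestine and liver, had a log2 fold change of −0.21.

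PLIN2, PLIN5 and ABHD5 differed more between the 2 controls than between the group means. PLIN2 (ENSSSCG00000035863, chromosome 1: 203683875 to 203713121, plus strand) stood at 239 and 186 CPM with Bobcat339 and at 334 and 164 CPM in the controls. The 2 controls of PLIN2 were thus the highest and the lowest of the 4 libraries, and its log2 fold change was −0.23 (95% interval −0.89 to 0.43). PLIN5 stood at 4.76 and 8.21 CPM with Bobcat339 and at 5.15 and 10.7 CPM in the controls, where the replicates numbered 2 were the higher in both groups. ABHD5, the coactivator of the lipase PNPLA2, followed the order of PLIN2 with 69.0 and 62.5 CPM against 104 and 51.5 CPM. PNPLA2 itself, adipose triglyceride lipase (ENSSSCG00000012841, chromosome 2: 513062 to 518182, plus strand), stood at 7.82 and 13.1 CPM with Bobcat339 and at 7.36 and 6.50 CPM in the controls. Its groups did not overlap, but Bobcat339 1 lay close to the controls, and the log2 fold change of 0.59 (95% interval −0.21 to 1.39) was 0.22 without Bobcat339 2. The PNPLA2 span lies wholly within the row of CD151, on the same strand. CD151 had 19 and 30 counts with Bobcat339 and 15 and 14 in the controls, and its part in the PNPLA2 value was not tested. LIPE, hormone-sensitive lipase, stood at 10.3 and 9.73 CPM with Bobcat339 and at 13.4 and 12.4 CPM in the controls. MGLL, which cleaves the last fatty acid from monoacylglycerol, stood at 4.28 and 4.21 CPM against 8.50 and 4.78 CPM. Both lipases were lower in each Bobcat339 library, with log2 fold changes of −0.36 for LIPE and −0.64 for MGLL, whose value was −0.17 without control 1.

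Genes of fatty acid synthesis, elongation and desaturation centred on 0, with 4 of 9 members above 0 and a median of −0.04 on the log2 scale. ELOVL6 (ENSSSCG00000036236, chromosome 8: 112038686 to 112191299, plus strand) stood at 1194 and 1118 CPM with Bobcat339 and at 1141 and 1237 CPM in the controls. Its 4 libraries were close together, and the log2 fold change of −0.04 had a 95% interval from −0.51 to 0.43. ACACA was as even, at 247 and 226 CPM against 249.5 and 246 CPM. ELOVL5 stood at 189 and 159 CPM with Bobcat339 and at 165 and 119 CPM in the controls, with a log2 fold change of 0.30 (95% interval −0.29 to 0.88). That of ELOVL5 was 0.11 without control 2, 0.16 without Bobcat339 1, 0.47 without Bobcat339 2 and 0.55 without control 1. FADS2, a front-end desaturase of polyunsaturated fatty acids, stood at 7.14 and 2.18 CPM with Bobcat339 and at 4.93 and 2.07 CPM in the controls. FADS2 differed more within each pair than between the groups, and the replicates numbered 1 were the higher in both. SCD, which places the first double bond in stearate, had a log2 fold change of −0.24, FADS1, the partner desaturase of FADS2, 0.17, and ACACB 0.26. ELOVL1, an elongase of very long saturated chains, was the only one of the 9 whose groups did not overlap, at 10 and 12 counts against 15 and 16.

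Mitochondrial entry and beta-oxidation were covered by 8 members, all tested, whose median was −0.13 on the log2 scale. CPT1A stood at 248 and 246 CPM with Bobcat339 and at 316 and 162 CPM in the controls. The Bobcat339 pair of CPT1A was almost equal and lay between the controls, and the log2 fold change was 0.05 (95% interval −0.58 to 0.68). CPT2, which rebuilds acyl-CoA on the inner mitochondrial membrane, stood at 20.7 and 18.7 CPM with Bobcat339 and at 24.2 and 27.2 CPM in the controls. Both Bobcat339 libraries of CPT2 were below both controls, with a log2 fold change of −0.38 (95% interval −1.06 to 0.29). ACADM, the medium-chain dehydrogenase, stood at 67.3 and 64.6 CPM against 93.9 and 67.0 CPM, with control 1 high. ACADL and ACADVL, the long-chain and very long-chain dehydrogenases, had log2 fold changes of −0.12 and −0.14. HADHA and HADHB, the subunits of the trifunctional protein whose rows overlap on opposite strands of chromosome 3, had 0.06 and −0.19. CPT1B had groups that did not overlap, at 41 and 34 counts with Bobcat339 and 34 and 28 in the controls, which as CPM was 2.79 and 2.47 against 2.43 and 1.999.

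The fatty acid carriers were lowest in control 2. FABP5 (ENSSSCG00000006153, chromosome 4: 55276621 to 55282908, minus strand) stood at 107 and 144 CPM with Bobcat339 and at 113 and 57.5 CPM in the controls. FABP3, the heart form, stood at 64.4 and 60.6 CPM with Bobcat339 and at 67.5 and 36.6 CPM in the controls. In both genes control 1 lay above Bobcat339 1 and control 2 stood alone below the rest. The log2 fold changes were 0.56 for FABP5 (95% interval −0.13 to 1.25) and 0.26 for FABP3 (95% interval −0.43 to 0.95).

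The 2 control libraries were further apart than the Bobcat339 pair. They differed by more than 2-fold at 9 of the 46 members (14.5% of all rows did), and the Bobcat339 libraries at 2 (7.08% of all rows). Control 1 lay above control 2 at 28 members, where it did at 49.8% of all rows. It was the highest library at 19 members, where it was highest at 32.7% of all rows, and control 2 was the lowest at 20, where it was lowest at 28.4% of all rows. The share of counts from the mitochondrial genome also differed, at 5.59% in control 1 and 6.36% in control 2 against 4.93% and 4.02% in the Bobcat339 libraries; its part in these values was not tested. Without control 1, edgeR called 3 members, all higher in Bobcat339, where 2.92% of all rows were called (2.03% as higher). These were FABP5 (log2 fold change 1.13; edgeR adjusted p = 0.000257), NSDHL (0.89; 0.00256) and CPT1A (0.61; 0.044). Without control 2 it called MVD alone, as lower (log2 fold change −1.21; edgeR adjusted p = 0.0429), where 2.47% of all rows were called (1.73% as lower). No member was called in both, and of the 4 only FABP5 had the same sign without either control, at 0.18 without control 2. These fits take the lone control to vary like the Bobcat339 libraries. With a library left out in turn 18 of the 46 members kept the sign of their log2 fold change throughout, 9 above and 9 below 0, as did 40.9% of all rows.

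**Figure D3:**
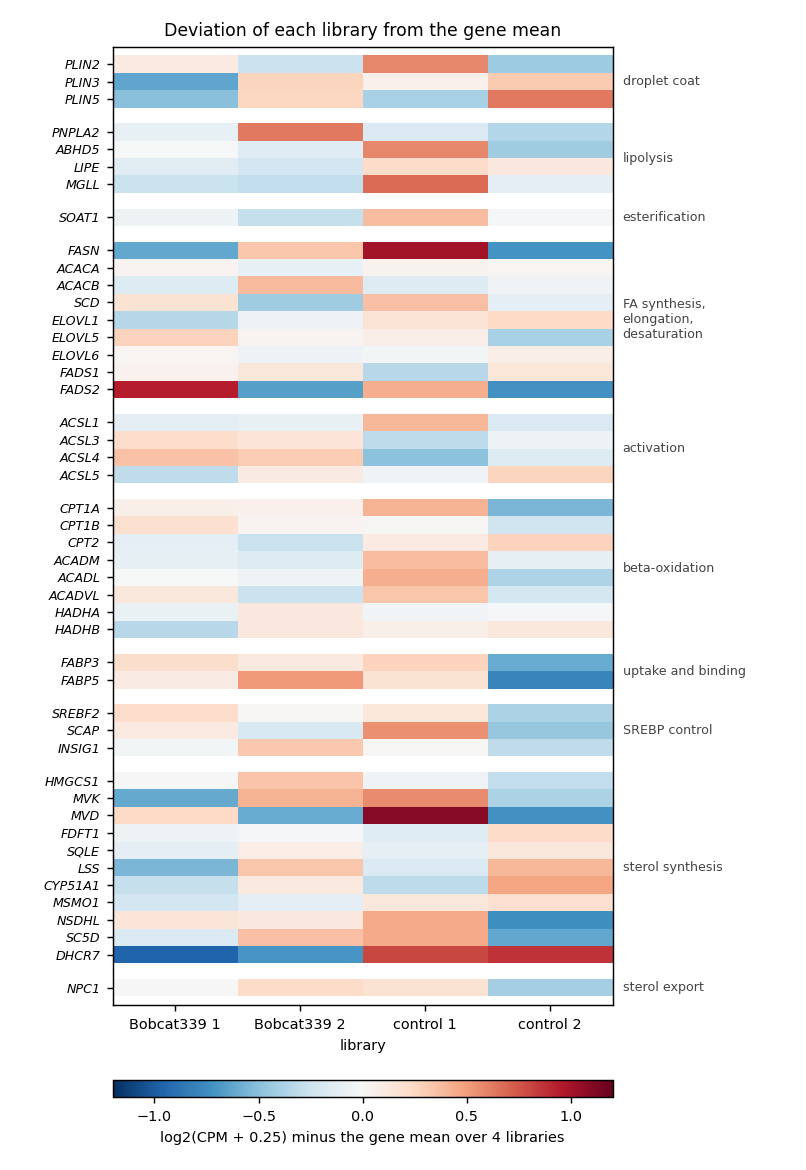
Deviation of each library from the gene's mean over the 4 libraries, on the log2(CPM + 0.25) scale, for the 46 tested members by role; red is above and blue below the mean. Control 1 is mostly red and control 2 mostly blue for CPT1A, ACADL, the carriers and the SREBP genes, while DHCR7 is blue in both Bobcat339 libraries.

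**Figure D4:**
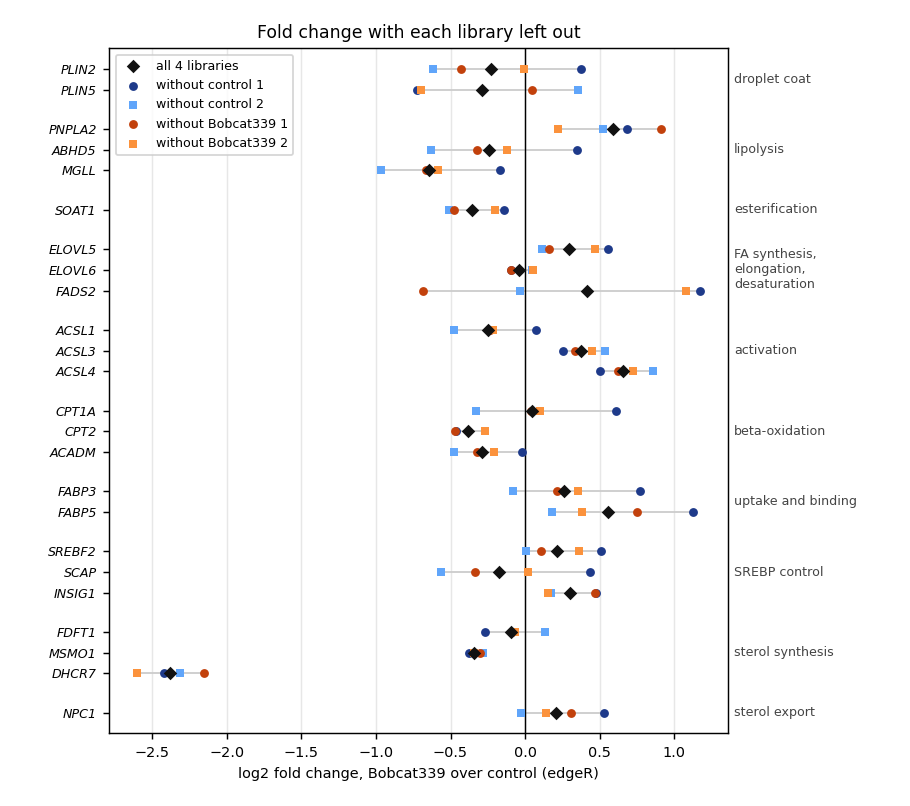
Log2 fold change (edgeR) of the members with the highest FPKM or the smallest p in each role, with all 4 libraries (diamonds) and with each library left out in turn. DHCR7, ACSL4, ACSL3, CPT2 and MSMO1 stay on 1 side of 0, whereas PLIN2, ABHD5, CPT1A and SCAP lie on opposite sides of 0 without control 1 and without control 2.

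A further 104 genes of the same pathways were read out of the same test, of which 99 have a row and 82 were tested. None of the 82 passed in edgeR or in DESeq2, and 3 had an unadjusted edgeR p under 0.05, all lower in Bobcat339 (2.64% of all rows were lower at that p); DESeq2 had 2 in either direction. Their median log2 fold change was −0.15, against −0.02 over all tested rows. Of the 82, 54 lay below 0, where 52.9% of all rows did. The groups did not overlap at 29 of them (35.4%), 10 higher and 19 lower. Of all rows 29.3% had groups that did not overlap (13.3% higher and 16% lower). ETFB, a subunit of the flavoprotein that takes electrons from beta-oxidation, stood at 0.612 and 1.45 CPM with Bobcat339 and at 5.00 and 2.93 CPM in the controls. Its log2 fold change was −1.94 in edgeR, with an adjusted p of 0.875. Its partner ETFA, far more abundant at 54.4 FPKM, had −0.21. FABP1, the liver form of the carriers, had a log2 fold change of −1.51, which was −0.42 without control 1, its only high library. ECHS1, which hydrates enoyl-CoA, had −0.88, which was −0.43 without control 1, and MLXIPL, a glucose-sensing activator of lipid synthesis, −1.18, each with both Bobcat339 libraries below both controls.

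Without control 2, edgeR called 6 of these pathway genes (ETFB, FABP1, ECHS1, GPAM and ACAA2 lower, HILPDA higher, where 0.74% of all rows were called as higher), and without control 1 it called LPIN1 alone, as higher. HILPDA, a small droplet protein that inhibits PNPLA2, was the most abundant of the pathway genes, at 369 and 421 CPM with Bobcat339 and 226 and 396 CPM in the controls. Control 1 stood alone below the rest, and the log2 fold change of HILPDA was 0.34 with all libraries, 0.83 without control 2 and −0.0030 without control 1. At 338 FPKM it exceeded every listed member in mean level, while G0S2, another known protein inhibitor of PNPLA2, had 0 counts in all 4 libraries. RAB18, a GTPase found on droplets, stood at 360 and 306 CPM with Bobcat339 and at 463 and 240 CPM in the controls, the order of PLIN2. MCAT, of mitochondrial fatty acid synthesis, had a log2 fold change of 0.19.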

How the data were processed

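Total RNA was taken with TRIzol and made into Smart-seq2 libraries, per the labels' protocols, and the authors deposited raw counts per gene beside FPKM. Per the submitters' processing notes the tools were Trimmomatic, HISAT2 2.0.5, HTSeq and DESeq2 1.16.1 with Sscrofa10.2; the deposited coordinates nevertheless follow Sscrofa11.1, where 98.8% of 14166 shared symbols overlap their RefSeq position, and are printed as deposited. The FPKM was used as the authors deposited it, and only to compare levels between genes. The deposited gene length differs by more than 1% from the length that FPKM implies at 40 of 52 members, by up to 4.73-fold. Orders of level between genes and shares within families therefore depend on the length behind the FPKM, and were not recomputed with the deposited length. The sources used here do not state how reads in overlapping genes were counted.

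Counts were tested with edgeR 4.0.16 (R 4.3.3): rows kept at a minimum count of 10, 18481 of 35248, TMM scaling, quasi-likelihood test and Benjamini-Hochberg adjustment over all tested rows at 0.05. CPM values use the TMM-scaled library sizes, and log2 ratios between libraries use CPM + 0.25. DESeq2 1.42.0, limma-voom (limma 3.58.1), other scalings and filters, a replicate block and each library left out in turn were alternatives. The code was tested on simulated data. Depth was 13568525 to 14681221 counts per library. Members and pathway lists were chosen with earlier results of these data known. Values by library are given for the 2 members of each role with the highest FPKM and the 2 with the smallest p; of the pathway genes, for some of the 4 with the smallest p and the 4 with the highest CPM; 1 gene named by that rule is not reported here. Other members whose groups do not overlap, and the pathway genes called with a library left out, were named after their values were seen.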

Additional observations from a re-analysis of the deposited data

How the results depend on the processing

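With all 4 libraries kept, other scalings, filters and tools called no member, and each fitted member kept the sign of its log2 fold change. The number of rows called was 0 by edgeR, 5 by DESeq2 and 44 (0.238%) with the replicate number as a block, where 0 members were called. Across the tested rows, the log2 difference of replicate 1 minus 2 in Bobcat339 correlated at 0.171 with that in the controls. This rests on only 2 pairs of libraries, and no label says that a number marks a shared batch. Whether same-numbered libraries share more than the number cannot be told here. The limits come from the depth at the low members and from 2 libraries a group. Promoter motifs were not run, since no promoter sequence was used here.

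Leaving out 1 library changed much more; the cause was not tested. Rows called ranged from 0 (without either Bobcat339 library) to 586 (without control 1), members called from 0 to 3 and other pathway genes called from 0 to 6. The median log2 fold change of the members ranged from −0.11 to 0.18. By role it ranged from −0.70 to 0.045 for the droplet coat, −0.51 to 0.090 for lipolysis, −0.51 to −0.14 for esterification (SOAT1), −0.30 to 0.10 for beta-oxidation, 0.049 to 0.95 for uptake and binding, 0.0068 to 0.48 for SREBP control, −0.28 to 0.065 for sterol synthesis and −0.029 to 0.53 for NPC1. The sign turned at 28 of the 46 members. Among the genes named by rule it turned at NPC1 and at PLIN2 (−0.62 to 0.37), PLIN5 (−0.73 to 0.35), ABHD5 (−0.63 to 0.35), ELOVL6 (−0.097 to 0.051), FADS2 (−0.69 to 1.17), ACSL1 (−0.48 to 0.073), CPT1A (−0.33 to 0.61), FABP3 (−0.080 to 0.77), SCAP (−0.56 to 0.43), FDFT1 (−0.27 to 0.13), HILPDA (−0.0030 to 0.83), RAB18 (−0.44 to 0.47) and MCAT (−0.10 to 0.58). The other 17 members whose sign turned include MVD (−1.21 to 0.64), NSDHL (−0.29 to 0.89), FASN (−1.28 to 0.91), MVK (−0.77 to 0.38), PLIN3 (−0.89 to 0.076) and SC5D (−0.32 to 0.75). Members that kept their sign also moved, as SREBF2 (0.0068 to 0.51), INSIG1 (0.16 to 0.48), ACADM (−0.48 to −0.023) and HMGCS1 (0.22 to 0.51).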

Other observations

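The RefSeq gene table for Sscrofa11.1 pairs 2 of the listed symbols with rows that carry no name in the count table. The row matched to INSIG2 (ENSSSCG00000036229), the second retention protein of SCAP, stood at 38.2 and 34.4 CPM with Bobcat339 and at 45.4 and 37.2 CPM in the controls. Its groups overlapped, with a log2 fold change of −0.19. At 12.9 FPKM it lay above INSIG1, at 1.30 FPKM, in every library. The row matched to ACSL6 (ENSSSCG00000014272), a synthetase known from brain, stood at 10.3 and 7.48 CPM with Bobcat339 and at 13.5 and 5.50 CPM in the controls. Control 1 was its highest and control 2 its lowest library, and its log2 fold change was −0.10. Both rows stand outside the counts of members given above.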
